A study of Triticum turgidum subsp. durum with 36 samples.

Results

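The 200 loci described here form a graded set at 12 days after anthesis (DAA): their mean level was lowest in flag leaves of the gpc-A1/gpc-B2 double mutant, intermediate in the gpc-A1 mutant and highest in the wild type (WT). They were chosen on the 12 DAA libraries, on the scale log2(CPM + 0.5), where CPM is the count of a locus scaled to the same total in every library. Every WT library had to lie above every gpc-A1/gpc-B2 library, the WT mean had to reach 2 CPM, and the mean of gpc-A1 had to lie between 0.333 and 0.667 of the way from the mean of gpc-A1/gpc-B2 to that of WT, called the middle band here. Loci with every WT library above every gpc-A1 library were left out, as were 71 loci matched to the metal transporter genes tabulated by the study. Of the 80168 loci in the count table, 3084 met the first conditions, 964 of these had the gpc-A1 mean in the middle band, and 770 remained after the 194 with separate WT and gpc-A1 libraries were removed. The 200 with the largest difference between WT and gpc-A1/gpc-B2 were kept. All of the 200 passed the filter on low counts, which left 75375 loci for the tests. The order of the genotypes at 12 DAA is therefore given by the choice of the loci, and the 12 DAA values below are a description without a test.

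The libraries came from the tetraploid wheat variety Kronos (Triticum turgidum subsp. durum). The gpc-A1/gpc-B2 plants carried premature stop codons from a TILLING population in both GPC-A1 and GPC-B2, the gpc-A1 plants carried the stop codon in GPC-A1 alone, and the WT plants, from the same backcrosses, carried neither. All 3 genotypes share a non-functional GPC-B1, so that both mutants lack a functional GPC1, and all 3 keep an intact GPC-A2. The mutants had been backcrossed to Kronos, which lowers but need not remove other induced mutations, the plants were grown in the greenhouse, and each library was made from 1 entire flag leaf. Flag leaves were sampled at heading date (HD), 12 DAA and 22 DAA, with 4 biological replicates in each of the 9 groups. A stop codon need not lower the number of transcripts, so the counts do not check the genotypes. The authors checked them in the mapped reads: the paper reports the stop codon mutations in the mutant samples and none in WT samples. The genotype field of gpc-A1 replicate 1 at HD reads wild type in the labels, but gpc-A1 stands in the title and in the source name, and the title was followed.

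GPC1 and its paralog GPC2 encode NAC transcription factors that are expressed in the flag leaf after anthesis. GPC1 accelerates the senescence of the leaf and the export of nitrogen, zinc and iron to the grain, and plants without it stay green for longer. During senescence the leaf normally dismantles its chloroplasts, so genes of photosynthesis decline, while genes of protein degradation and transport become more active.

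Libraries held between 13754124 and 48981831 counts in total, with a median of 19377651. The 9 samples of 1 replicate number were sequenced together, so the replicate number ties libraries of different groups, and differences are also given within replicate numbers. Leaf mesophyll was checked with 41 loci described as chlorophyll a-b binding proteins, photosystem subunits or the small chain of Rubisco, all of which had reads in every library. At 12 DAA they held between 2.57% and 5.64% of the counts in gpc-A1/gpc-B2, between 4.06% and 6.28% in gpc-A1 and between 5.48% and 6.33% in WT. In whole leaves, fewer cells of a type and less RNA per cell cannot be told apart. Over all loci tested, the median difference at 12 DAA on the log2(CPM + 0.5) scale was 0.10 between gpc-A1/gpc-B2 and WT and 0.04 between gpc-A1 and WT.

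The median level of the 200 loci at 12 DAA, on the log2(CPM + 0.5) scale, was 3.02, 2.29, 2.27 and 2.80 in replicates 1 to 4 of gpc-A1/gpc-B2. It was 2.83, 3.52, 3.56 and 2.82 in gpc-A1, and 3.66, 3.72, 3.84 and 3.94 in WT. The gpc-A1 libraries thus fell into 2 levels: replicates 2 and 3 lay close to WT, and replicates 1 and 4 lay within the range of gpc-A1/gpc-B2. Among the gpc-A1/gpc-B2 libraries the division ran the other way, with replicates 1 and 4 above replicates 2 and 3.

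**Figure D1:**
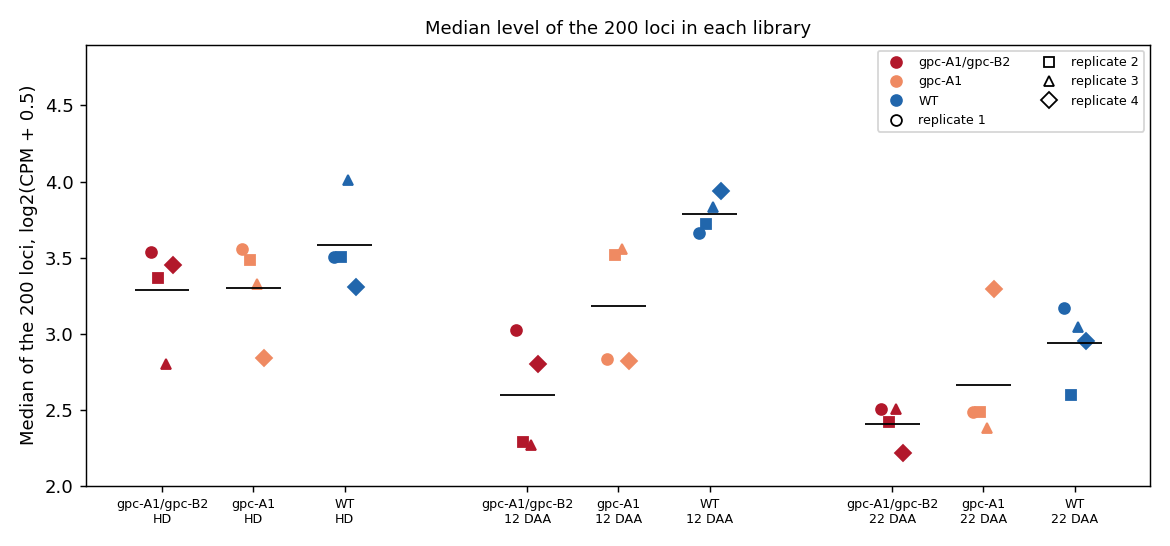
Median over the 200 loci of log2(CPM + 0.5) in each of the 36 libraries, by genotype and time point, with the replicate number as the symbol and the mean of the 4 libraries as a line. At 12 DAA, gpc-A1 replicates 2 and 3 (3.52 and 3.56) sit near the WT libraries and gpc-A1 replicates 1 and 4 (2.83 and 2.82) near the gpc-A1/gpc-B2 libraries.

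The level in gpc-A1 was at or above the lowest WT library in 24, 100, 132 and 23 of the 200 loci for replicates 1 to 4, and at or below the highest gpc-A1/gpc-B2 library in 142, 42, 21 and 138 loci. Of all values that the 4 gpc-A1 libraries give for the 200 loci, 343 (42.9%) lay at or below the highest gpc-A1/gpc-B2 library, 279 (34.9%) at or above the lowest WT library and 178 between these limits. That each locus has at least 1 gpc-A1 library at or above the lowest WT library follows from the rule. Only 15 of the 200 loci had every gpc-A1 library above every gpc-A1/gpc-B2 library. Both of gpc-A1 replicates 2 and 3 exceeded both of replicates 1 and 4 in 130 loci (65%), against 15.1% of the 35863 loci with a WT mean of at least 2 CPM. Both of gpc-A1/gpc-B2 replicates 1 and 4 exceeded both of replicates 2 and 3 in 141 loci (70.5%), against 19.4% of those loci. The rule used these values and favours loci whose gpc-A1 libraries are divided, so nothing is read from these shares. Since the rule also favours a narrow spread in WT, the spreads between replicates are a description. The median SD between replicates was 0.51 in gpc-A1/gpc-B2, 0.49 in gpc-A1 and 0.22 in WT on the log2 scale.

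Within replicate numbers, the 2 mutants differed in replicates 2 and 3 and hardly in replicates 1 and 4. The median difference between gpc-A1/gpc-B2 and gpc-A1 at 12 DAA was 0.14, −1.17, −1.14 and 0.06 for replicates 1 to 4. The median difference between gpc-A1/gpc-B2 and WT was −0.68, −1.42, −1.44 and −0.86, and that between gpc-A1 and WT was −0.86, −0.20, −0.22 and −0.84. The order gpc-A1/gpc-B2 below gpc-A1 below WT held in 69, 134, 164 and 87 of the 200 loci. The intermediate mean of gpc-A1 thus averaged 2 libraries near WT and 2 libraries near gpc-A1/gpc-B2 in these medians. The rule favours such a division, so nothing is read from it. The share of counts in the mesophyll markers was 5.64%, 2.57%, 2.78% and 4.07% in gpc-A1/gpc-B2 replicates 1 to 4, and thus higher in the replicates where the 200 loci were higher. In gpc-A1 it was 5.89%, 6.28%, 6.27% and 4.06%, so replicate 1 was near replicates 2 and 3 here, unlike in the level of the 200 loci. Of the 41 markers, 1 is itself in the set. The part of the marker share in the result was not tested. Without gpc-A1 replicate 3 the rule kept 85 of the 200 loci, and without replicates 1, 2 or 4 it kept 107, 110 and 139. Leaving out single gpc-A1/gpc-B2 libraries kept 122, 125, 140 and 149 loci for replicates 1 to 4.

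**Figure D2:**
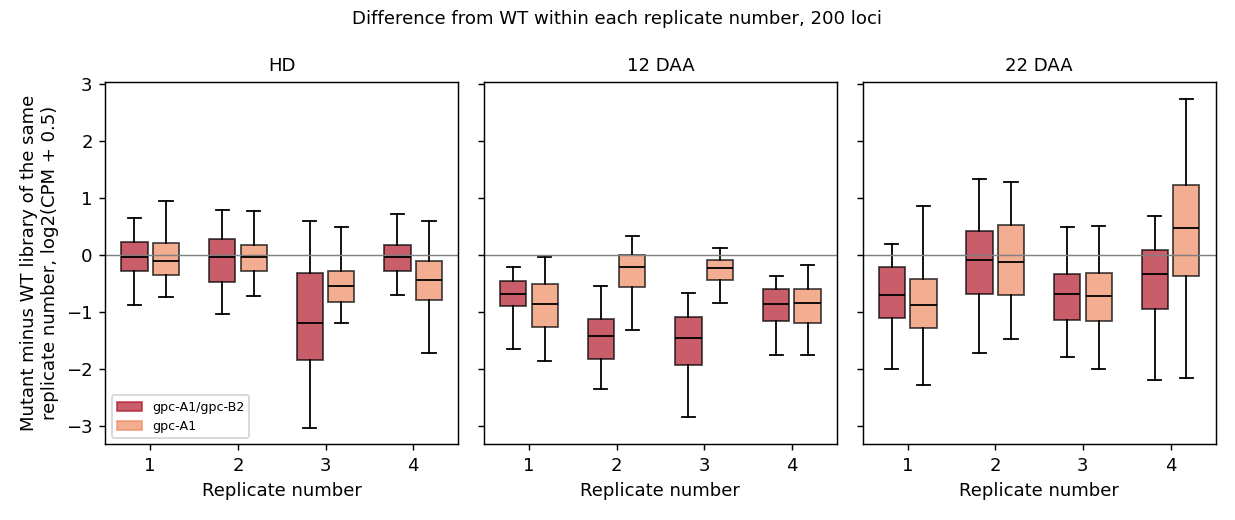
Difference of each mutant library from the WT library of the same replicate number, in log2(CPM + 0.5), over the 200 loci, in 1 panel per time point (boxes span the quartiles with the median as a line, and whiskers reach the 5th and 95th percentiles). At 12 DAA the gpc-A1 boxes lie near those of gpc-A1/gpc-B2 in replicates 1 and 4 (medians −0.86 and −0.84) and near 0 in replicates 2 and 3 (−0.20 and −0.22).

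The loci with the most reads in the set were 3 loci of Rubisco activase and 2 loci described as fructose-bisphosphate. A description from the study's supplementary table was at hand for 782 loci, and 18 of these are in the set. Loci are named here by chromosome arm, contig of the chromosome arm assembly of Chinese Spring by the IWGSC (the wheat genome sequencing consortium), and positions on the contig, since the files give no gene names. CPM values are not scaled by length, so they compare libraries and not genes.

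Rubisco activase frees Rubisco from inhibitory sugar phosphates and so keeps the carboxylating enzyme active. The 4BS locus (contig 4910205, 10201-12695) had 7695, 2686, 5012 and 6549.9 CPM in gpc-A1/gpc-B2 at 12 DAA, 5893, 8928, 9319.6 and 6144 CPM in gpc-A1 and 10582, 10282, 11334 and 9260.1 CPM in WT. Its gpc-A1 replicate 3 reached the WT range, replicate 2 lay just below it, and gpc-A1 replicates 1 and 4 lay below the highest gpc-A1/gpc-B2 library. The 4AL locus (contig 3709155, 972-3382) had 6511, 2262, 4118 and 5698 CPM in gpc-A1/gpc-B2, 4913, 7849.9, 8001 and 5362 CPM in gpc-A1 and 9663, 9431, 10303 and 7878 CPM in WT. A short 5AS locus described as the beta form of Rubisco activase (contig 1473229, 87-534) had 998, 329, 637 and 890.2 CPM in gpc-A1/gpc-B2, 721, 1077, 1114 and 774 CPM in gpc-A1 and 1451, 1287, 1496 and 1046 CPM in WT. The 3 activase loci shared 1 order of libraries in the mutants, with replicate 2 lowest in gpc-A1/gpc-B2 and replicates 2 and 3 highest in gpc-A1. Reads that match several near-identical copies were not counted, so the split of reads between the activase loci is uncertain.

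Sedoheptulose-bisphosphatase is an enzyme of the Calvin cycle that helps to regenerate the acceptor of carbon dioxide. Its 3AL locus (contig 4356350, 1-1966) had 408, 273, 296 and 362 CPM in gpc-A1/gpc-B2 at 12 DAA, 509, 517, 481 and 419.5 CPM in gpc-A1 and 630.0, 639, 620.4 and 492 CPM in WT. This was 1 of the 15 loci with every gpc-A1 library above every gpc-A1/gpc-B2 library, so here the middle level was shared by the 4 gpc-A1 libraries, of which 2 reached the lowest WT library. A 5BS locus described as chloroplastic fructose-bisphosphate, with no enzyme named (contig 2242928, 4468-6336), had 2899.7, 1404, 1750.2 and 2539 CPM in gpc-A1/gpc-B2, 2447, 3869, 3230.2 and 2589.9 CPM in gpc-A1 and 3781, 4508, 4286 and 3027 CPM in WT. A 7AL locus with the same words for a cytoplasmic isozyme (contig 4522889, 1807-2507) had 618, 389.5, 561 and 706 CPM in gpc-A1/gpc-B2, 653, 1016, 949.9 and 708 CPM in gpc-A1 and 945, 1043, 1109.8 and 941 CPM in WT. Psb28 is a small protein that takes part in the assembly of photosystem II. Its 3B locus (contig 10748972, 8876-10472) had 151, 89.9, 75.6 and 125 CPM in gpc-A1/gpc-B2, 82.1, 255, 210.1 and 120.3 CPM in gpc-A1 and 244, 207, 233 and 198 CPM in WT. Psb28 showed the divided pattern, with gpc-A1 replicate 2 above every WT library, replicate 3 inside the WT range and replicates 1 and 4 inside the gpc-A1/gpc-B2 range.

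The largest differences between WT and gpc-A1/gpc-B2 among the described loci were those of 2 loci for peroxisomal membrane protein 2, a channel protein of the peroxisome. The 2AL locus (contig 6425906, 1314-10767) had 202, 51.6, 57.6 and 139 CPM in gpc-A1/gpc-B2 at 12 DAA, 89.5, 271, 289.9 and 103 CPM in gpc-A1 and 302, 270.3, 382 and 302 CPM in WT. The 1BS locus (contig 2144422, 1-2393) had 284, 106, 73.4 and 187 CPM in gpc-A1/gpc-B2, 140.3, 396, 475 and 163 CPM in gpc-A1 and 440.2, 332, 494 and 414 CPM in WT. Both loci had gpc-A1 replicates 1 and 4 lower than gpc-A1/gpc-B2 replicate 1, while gpc-A1 replicates 2 and 3 were inside the WT range.

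**Figure D3:**
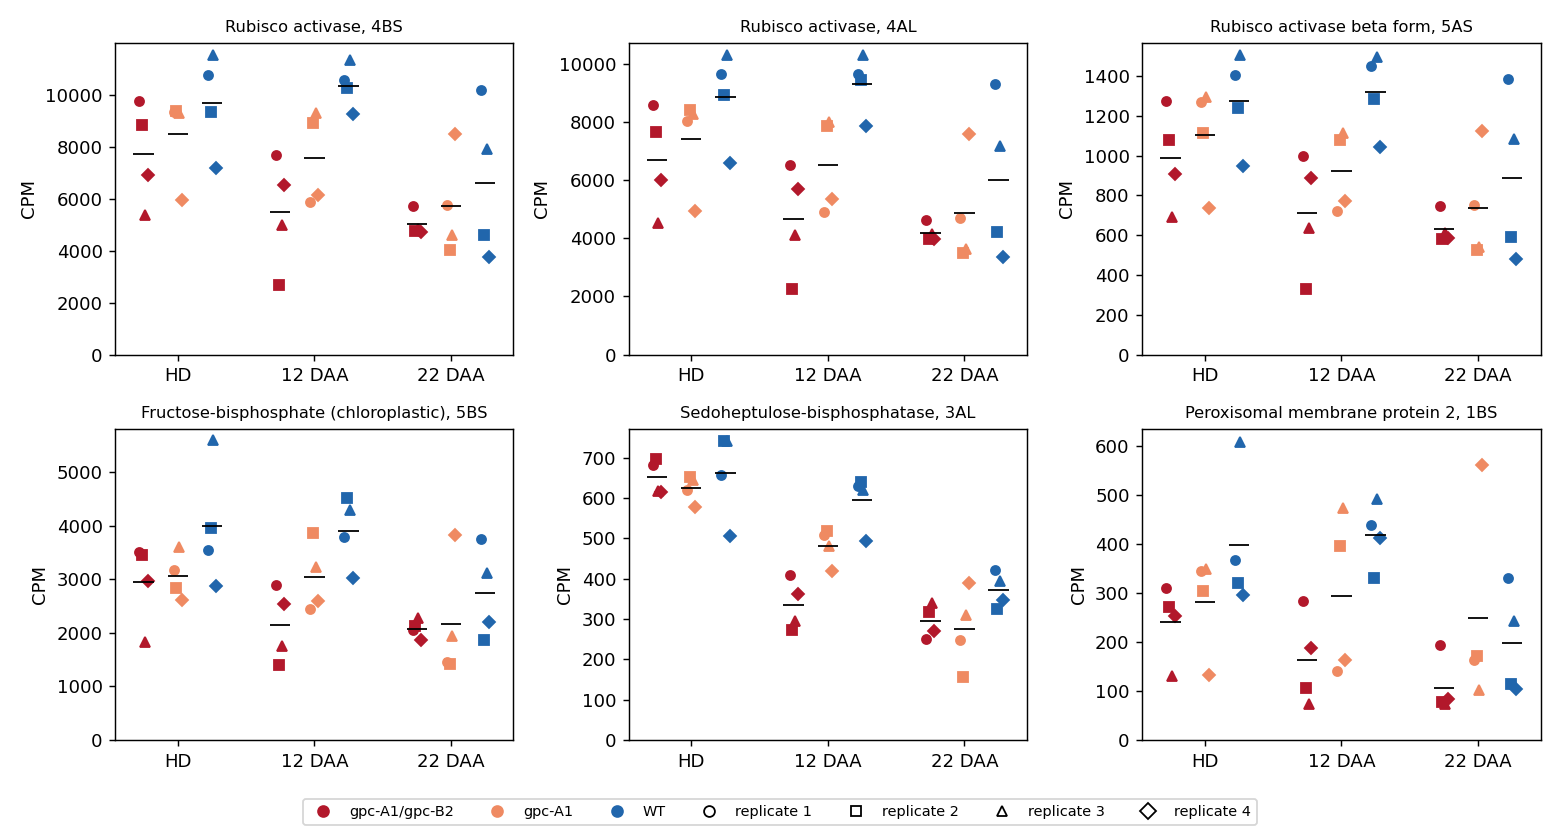
CPM of 6 described loci in all 36 libraries (linear axis from 0, 1 panel per locus, groups by genotype and time point, replicate number as the symbol, mean as a line). In the panel of the 4BS Rubisco activase locus at 12 DAA, gpc-A1 replicates 2 and 3 stand at 8928 and 9319.6 CPM and replicates 1 and 4 at 5893 and 6144 CPM, while the WT libraries lie at 9260.1 CPM or above.

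The other described loci cover unrelated functions. Carotenoid cleavage dioxygenases cut carotenoids into smaller apocarotenoids. A 6BL locus described as a probable chloroplastic member (contig 249530, 1-2979) had 223, 102, 49.4 and 153 CPM in gpc-A1/gpc-B2 at 12 DAA, 145, 147, 295 and 125 CPM in gpc-A1 and 238, 255, 293 and 276 CPM in WT. Enolase-phosphatase E1 acts in the salvage of methionine. Its 3B locus (contig 6907185, 9546-11831) had 162, 73.6, 80.99 and 156 CPM in gpc-A1/gpc-B2, 78.5, 244, 236 and 141 CPM in gpc-A1 and 246, 240.4, 272 and 213 CPM in WT. Ruptured pollen grain 1 was named in Arabidopsis, where it is a sugar transporter of the SWEET family. The 6AL locus with this description (contig 5752894, 10763-12873) had 158, 118, 140.0 and 89.3 CPM in gpc-A1/gpc-B2, 241, 206, 182 and 127 CPM in gpc-A1 and 254, 245, 174 and 288 CPM in WT. In the dioxygenase 1 gpc-A1 library and in the transporter 3 gpc-A1 libraries reached the lowest WT library, so the transporter did not show the division into replicates 2 and 3 against 1 and 4.

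The remaining 6 described loci also divided the gpc-A1 libraries, though not all in the same way. The 3B locus of a pentatricopeptide repeat protein, a family that processes organelle RNA (contig 10519617, 5124-8745), had 416, 209, 208 and 347 CPM in gpc-A1/gpc-B2, 279, 573, 432 and 349 CPM in gpc-A1 and 544, 637, 588 and 483 CPM in WT. The 2AL locus of beta-glucosidase 16, an enzyme that splits glucose from glucosides (contig 6429534, 3007-7677), had 171, 56.2, 129 and 119.5 CPM in gpc-A1/gpc-B2, 198, 149, 233 and 111 CPM in gpc-A1 and 199, 221, 194 and 237 CPM in WT. The 6AL locus of an abhydrolase domain protein (contig 5783865, 2229-4215) had 103, 101, 78.1 and 117 CPM in gpc-A1/gpc-B2, 111, 197, 127 and 145 CPM in gpc-A1 and 184, 223, 175 and 157 CPM in WT. Beta-glucosidase 16 had gpc-A1 replicates 1 and 3 in the WT range and replicates 2 and 4 in the gpc-A1/gpc-B2 range, unlike most of the set. The 6AS locus described as a myosin-J heavy chain (contig 4363144, 5830-11048), the 1AL locus of a prenyl transferase-like protein (contig 3853362, 4949-7674) and the 7AL locus of a predicted protein (contig 4456338, 1146-4499) each had gpc-A1 replicates 2 and 3 above replicates 1 and 4. For the myosin locus the CPM values in gpc-A1 were 182, 315, 362 and 215, against 380.5, 330.2, 407 and 395 in WT.

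The loci with the largest differences between WT and gpc-A1/gpc-B2 had no description, and their 12 DAA values were below 100 CPM in every library. The 7BS locus (contig 3148071, 1-1792) had the largest difference of the set and 9.47-fold higher values in WT on the log2(CPM + 0.5) scale. It had 18.7, 4.48, 0.218 and 0.122 CPM in gpc-A1/gpc-B2 at 12 DAA, 34.02, 9.10, 11.2 and 0 CPM in gpc-A1 and 24.2, 22.01, 24.6 and 24.1 CPM in WT. Its gpc-A1 libraries spanned both ends, with replicate 1 above every WT library and replicate 4 without reads. The 3B locus (contig 10579321, 366-2202) followed with 3.63, 4.38, 0.582 and 1.34 CPM in gpc-A1/gpc-B2, 6.59, 6.86, 15.2 and 4.29 CPM in gpc-A1 and 24.5, 11.5, 22.8 and 16.9 CPM in WT. The 2BL locus (contig 7965110, 26123-27524) had 1.27, 0.492, 1.53 and 0.305 CPM in gpc-A1/gpc-B2, 6.78, 1.90, 0.487 and 3.31 CPM in gpc-A1 and 8.40, 6.61, 12.9 and 4.57 CPM in WT. Among these 3 loci, the gpc-A1 library that reached the lowest WT library was replicate 1 for the 7BS and 2BL loci and replicate 3 for the 3B locus.

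The next loci of this order were a 7BL locus (contig 6709676, 5018-7460), a 1AL locus (contig 1308330, 85-3573), a 1BL locus (contig 3915340, 2081-3638), a 6BL locus (contig 4369697, 1944-6950), a further 7BL locus (contig 6737515, 1933-3380), a further 1BL locus (contig 3915050, 783-6010), a 2BS locus (contig 5135769, 4708-10922), a further 1AL locus (contig 3925467, 441-1256) and a 1AS locus (contig 2952058, 144-380). The 1AL locus on contig 1308330 had 22.2, 2.26, 7.78 and 14.5 CPM in gpc-A1/gpc-B2, 29.8, 55.9, 19.7 and 11.6 CPM in gpc-A1 and 49.7, 43.7, 49.1 and 60.4 CPM in WT. The 1BL locus on contig 3915340 had 4.97, 2.02, 3.49 and 4.88 CPM in gpc-A1/gpc-B2, 5.51, 15.1, 18.4 and 5.21 CPM in gpc-A1 and 19.4, 15.03, 20.99 and 17.4 CPM in WT. The 2BS locus had 7.27, 1.13, 1.53 and 5.68 CPM in gpc-A1/gpc-B2, 2.34, 12.6, 16.5 and 3.20 CPM in gpc-A1 and 18.7, 7.83, 15.6 and 13.01 CPM in WT. The 1BL and 2BS loci repeated the division of the gpc-A1 libraries, with replicates 2 and 3 within the WT range. In the 7BL locus on contig 6737515 gpc-A1 replicate 4 alone reached WT, at 9.28 CPM, against 8.78, 5.64, 9.47 and 8.60 CPM in WT.

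**Figure D4:**
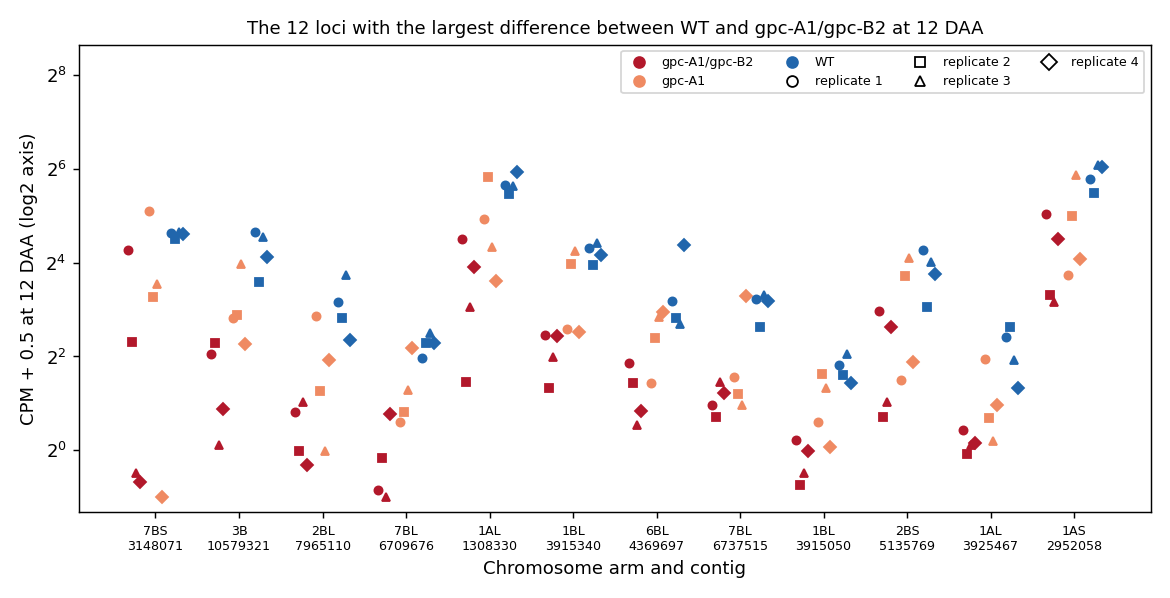
CPM + 0.5 at 12 DAA (log2 axis) of the 12 loci with the largest difference between WT and gpc-A1/gpc-B2, with 1 symbol per library. The gpc-A1 symbols spread widely. In the 7BS locus they ran from 0 CPM, below every gpc-A1/gpc-B2 library, to 34.02 CPM, above every WT library.

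The fold of WT over gpc-A1/gpc-B2 at 12 DAA, from means on the log2(CPM + 0.5) scale, ran from 9.47 to 1.78, with a median of 2.09. By the rule's own measure, the last 3 loci kept were on 6AS (contig 4391073, 4251-6008), 2AL (contig 6381795, 2129-7054) and 1AL (contig 3896278, 2284-3281), with log2 differences of −0.83 each between gpc-A1/gpc-B2 and WT. The first 3 loci left out by the limit were on 4BS (contig 4935065, 2258-7828, sucrose-phosphate synthase), 2AS (contig 5307952, 7267-13029) and 6BS (contig 2979145, 1173-2065), with log2 differences of −0.82 each. The limit of 200 therefore cut through loci with nearly the same difference. The 4BS locus of sucrose-phosphate synthase, an enzyme of sucrose synthesis, had 258, 154, 263 and 280.4 CPM in gpc-A1/gpc-B2, 248, 408, 365 and 277 CPM in gpc-A1 and 408, 455, 431 and 362 CPM in WT.

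In WT at 12 DAA, 84 of the 200 loci had a mean of 2 to 10 CPM, 87 of 10 to 100 CPM and 29 of 100 CPM or more. The 5 with the highest counts were the 3 activase loci and the 2 fructose-bisphosphate loci. The median length of the loci was 1638 bp, against 2858 bp for the 35863 loci with a WT mean of at least 2 CPM. The B genome held 106 loci (53%, against 51.3% of the 35863 loci) and the A genome 94 (47%, against 48.7%). Chromosome 3B held 22 (11%, against 8.92%), 6BL 12 (6%, against 3.80%), and the other arms between 2 and 11. Apart from 2 pairs on contigs of 7AL and 4AL, no loci of the set shared a contig.

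The comparisons at 22 DAA and HD used libraries that had no part in the choice of the loci. A locus was called when 4 tests passed: edgeR's quasi-likelihood test and the Wald test of DESeq2 with adjusted P of 0.01 or less over all loci tested, a rank test of Mann-Whitney-Wilcoxon at P of 0.05, and a t statistic at P of 0.01. Log2 fold changes, standard errors and adjusted P are those of edgeR. The comparisons between genotypes at 1 time point share libraries, as do those with the same genotype at 2 time points, and are given side by side.

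At 22 DAA, 5 of the 200 loci were lower in gpc-A1/gpc-B2 than in WT by the 4 tests, against 0.105% of all loci tested, and none was higher, against 0.0371%. An unadjusted edgeR p under 0.05 was reached by 81 loci in the lower and 0 in the higher direction, against 7.56% and 7.54% of all loci, and DESeq2 alone called 33 lower and 0 higher, against 1.18% and 1.04%. The log2 fold change was below 0 in 180 of the 200 loci, against 50.7% of all loci, with a median of −0.67, against −0.01 over all loci tested. For replicate numbers 1 to 4 the median difference was −0.70, −0.08, −0.67 and −0.32, so it was small in replicate 2. Every gpc-A1/gpc-B2 library lay below every WT library in 47 loci, against 4.66% of all loci. When the replicate number was fitted as a block, 3 of the 5 calls remained, namely the 7BS locus, the 4BS locus on contig 4949814 and the 3B locus on contig 10770071. No locus of the set was called without gpc-A1/gpc-B2 replicate 3 or 4, and 1 was called without replicate 2 of that genotype. Without WT replicate 4 there were 2 calls, and without WT replicate 1 there were 3. Over all loci tested, the 107 calls became 40, 32 and 11 without gpc-A1/gpc-B2 replicates 2, 3 and 4. They became 105 and 73 without WT replicates 1 and 4.

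The 5 loci have no description. The 7BS locus (contig 3148071, 1-1792) had 0.210, 0, 0.0489 and 0 CPM in gpc-A1/gpc-B2 at 22 DAA, against 14.9, 6.03, 6.28 and 16.7 CPM in WT, a log2 fold change of −7.22 ± 0.67 (SE, edgeR adjusted P = 0.00227), whose size depends on the prior count since 2 libraries had no reads. The same locus was also nearly without reads in gpc-A1/gpc-B2 replicates 1 and 2 at HD (0.0513 and 0.0426 CPM), in WT replicate 2 at HD and in gpc-A1 replicate 4 at 12 DAA, both at 0, so that its on and off states did not follow genotype in every library. The 3B locus (contig 10770071, 12743-14085) had 0.336, 0.212, 0.244 and 0.155 CPM in gpc-A1/gpc-B2, against 3.12, 1.48, 1.73 and 2.73 CPM in WT, a log2 fold change of −3.24 ± 0.36 (SE, edgeR adjusted P = 0.0043). The other 3 are named after their values were seen, because they complete the count. The 4BS locus (contig 4949814, 5031-7433) had 6.05, 9.98, 6.99 and 8.12 CPM in gpc-A1/gpc-B2 and 42.5, 35.4, 25.4 and 34.6 CPM in WT. The 7AS locus (contig 4246819, 1-3318) had 1.68, 1.74, 1.61 and 1.71 CPM in gpc-A1/gpc-B2 and 5.86, 5.27, 4.12 and 6.16 CPM in WT. The 3B locus on contig 10530099 (1455-2744) had 2.94, 2.59, 3.18 and 2.38 CPM in gpc-A1/gpc-B2 and 8.75, 9.61, 6.28 and 6.76 CPM in WT. Their log2 fold changes were −2.19 ± 0.21, −1.70 ± 0.18 and −1.54 ± 0.20 (SE, edgeR adjusted P = 0.00256, 0.00317 and 0.00911). The groups did not overlap in any of the 5 loci, and the values of the 3B locus on contig 10770071 and of the 7BS locus in gpc-A1/gpc-B2 rest on few reads.

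No locus of the set was called between gpc-A1 and WT at 22 DAA, against 0% of all loci. At an unadjusted edgeR p under 0.05 there were 33 lower and 1 higher, against 2.57% and 2.77% of all loci, and DESeq2 alone called 5 lower and 0 higher, against 0.146% and 0.0239%. Every gpc-A1 library lay below every WT library in 15 loci, against 1.61% of all loci. The log2 fold change was below 0 in 129 of the 200 loci, against 48.2%, and its median was −0.15, against 0.02. This median was −0.51 without gpc-A1 replicate 4 and 0.023 without WT replicate 1. For replicate numbers 1 to 4 the median difference between gpc-A1 and WT was −0.87, −0.11, −0.71 and 0.49. The median level of the 200 loci at 22 DAA was 2.49, 2.49, 2.38 and 3.29 in gpc-A1 and 3.17, 2.60, 3.04 and 2.95 in WT, so that gpc-A1 replicate 4 stood above every WT library.

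Between gpc-A1/gpc-B2 and gpc-A1 at 22 DAA, again none of the 200 loci was called, against 0.00796% of all loci in the lower and 0.00398% in the higher direction. At an unadjusted edgeR p under 0.05 there were 26 lower and 0 higher, against 3.51% and 1.98% of all loci, and DESeq2 alone called 2 lower and 0 higher, against 0.0624% and 0.0345%. In 4 loci every gpc-A1/gpc-B2 library lay below every gpc-A1 library, against 1.48%, and the log2 fold change was below 0 in 160, against 52.8%. The median log2 fold change was −0.43, against −0.02 over all loci, and −0.078 without gpc-A1 replicate 4. Within replicate numbers the median difference was 0.15, −0.10, 0.05 and −0.93, so that replicate 4 carried it. The order gpc-A1/gpc-B2 below gpc-A1 below WT of the group means held in 91 loci (45.5%) at 22 DAA, against 17.9% of the 35863 loci, and the gpc-A1 mean lay in the middle band in 30 (15%), against 6.65%. Taken within replicate numbers 1 to 4, this order held in 47, 36, 66 and 55 of the 200 loci.

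The described loci did not pass the tests between genotypes at 22 DAA. The carotenoid cleavage dioxygenase locus came nearest, with 89.6, 50.05, 91.8 and 46.9 CPM in gpc-A1/gpc-B2, 64.2, 85.8, 108 and 147 CPM in gpc-A1 and 237, 206, 175 and 183 CPM in WT. Its log2 fold change between gpc-A1/gpc-B2 and WT was −1.56 ± 0.27 (SE, edgeR adjusted P = 0.0256), and neither mutant overlapped with WT. The ruptured pollen grain 1 locus had 32.6, 60.3, 53.01 and 49.7 CPM in gpc-A1/gpc-B2, 38.1, 25.3, 62.3 and 53.6 CPM in gpc-A1 and 89.2, 130.5, 68.96 and 235 CPM in WT, with a log2 fold change of −1.42 ± 0.32 between gpc-A1/gpc-B2 and WT (SE, edgeR adjusted P = 0.0679). Its mutant libraries all lay below WT as well. For the 4BS Rubisco activase locus the genotypes overlapped, with 5734, 4746, 4848 and 4725 CPM in gpc-A1/gpc-B2, 5760.2, 4031, 4598 and 8513 CPM in gpc-A1 and 10176, 4595, 7913 and 3757 CPM in WT. Its WT libraries were themselves divided, with replicates 1 and 3 high and replicates 2 and 4 low, and the log2 fold change between gpc-A1/gpc-B2 and WT was −0.46 ± 0.35 (SE, edgeR adjusted P = 0.592).

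At HD, none of the 200 loci was called between gpc-A1/gpc-B2 and WT, against 0% of all loci in the lower and 0.00133% in the higher direction. At an unadjusted edgeR p under 0.05 there were 34 lower and 1 higher, against 2.28% and 2.66% of all loci, and DESeq2 alone called 4 lower and 0 higher, against 0.0371% and 0.0239%. Every gpc-A1/gpc-B2 library lay below every WT library in 22 loci, against 1.66% of all loci. The log2 fold change was below 0 in 177 of the 200 loci, against 49.2%, with a median of −0.41, against 0.01. The difference rested largely on replicate 3: within replicate numbers 1 to 4 the median difference was −0.02, −0.03, −1.19 and −0.02. The median level of the 200 loci at HD was 3.54, 3.37, 2.80 and 3.45 in gpc-A1/gpc-B2 and 3.50, 3.50, 4.01 and 3.30 in WT, so that replicate 3 was the lowest in the mutant and the highest in WT. The median log2 fold change was −0.17 without WT replicate 3 and −0.26 without gpc-A1/gpc-B2 replicate 3, and between −0.52 and −0.40 when 1 of the other libraries was left out.

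Between gpc-A1 and WT at HD, none was called either, against 0% of all loci, while 40 loci were lower and 2 higher at an unadjusted edgeR p under 0.05, against 3.97% and 3.38% of all loci, and DESeq2 alone called 2 lower and 0 higher, against 0.0371% and 0.0172%. In 14 loci every gpc-A1 library lay below every WT library, against 2.2% of all loci, and the log2 fold change was below 0 in 172, against 53.0%. The median log2 fold change was −0.35, against −0.02, and the medians within replicate numbers were −0.09, −0.02, −0.54 and −0.43. It was −0.16 without WT replicate 3. Between gpc-A1/gpc-B2 and gpc-A1, none was called, against 0% in the lower and 0.00133% in the higher direction, with 9 lower and 6 higher at an unadjusted edgeR p under 0.05, against 2.1% and 3.53%, and none by DESeq2 alone, against 0.00398% lower and 0.0478% higher. In 2 loci the libraries of gpc-A1/gpc-B2 all lay below those of gpc-A1, against 1.57%, and 121 log2 fold changes were below 0, against 48.3%. This median was −0.10, against 0.01, and moved to 0.075 without gpc-A1/gpc-B2 replicate 3 and to −0.21 without gpc-A1 replicate 4, and it was −0.05, −0.04 and −0.02 without gpc-A1 replicates 1, 2 and 3. The graded order of the group means held at HD in 97 loci (48.5%), against 11.6% of the 35863 loci. Taken within replicate numbers 1 to 4, this order held in 41, 39, 136 and 18 loci of the set, and thus mostly in replicate 3.

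**Figure D5:**
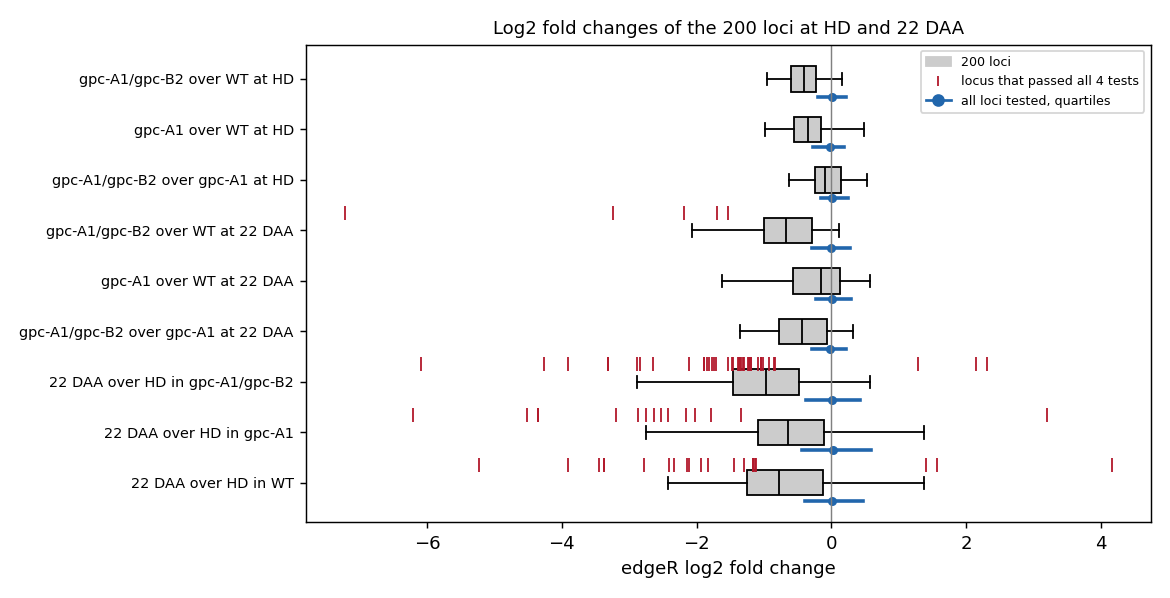
edgeR log2 fold changes of the 200 loci in the comparisons between genotypes and of 22 DAA with HD (grey boxes span the quartiles with the median as a line, whiskers reach the 5th and 95th percentiles), with red ticks for loci that passed all 4 tests and the median and quartiles of all loci tested in blue. The medians of the 200 loci lie between −0.98 and −0.10, and those of all loci within 0.03 of 0.

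The 12 DAA values used by the rule enter the stage at which a locus was highest, so the following counts are a description. By group means, 162 of the 200 loci were highest at HD in gpc-A1/gpc-B2, 99 in gpc-A1 and 49 in WT. At 12 DAA, the stage used for the choice, the highest mean was found in 15 loci in gpc-A1/gpc-B2, 77 in gpc-A1 and 139 in WT. At 22 DAA it was found in 23, 24 and 12 loci. The median of the mean levels was 3.40, 2.53 and 2.38 at HD, 12 DAA and 22 DAA in gpc-A1/gpc-B2, 3.22, 3.13 and 2.47 in gpc-A1, and 3.56, 3.78 and 2.85 in WT, on the log2(CPM + 0.5) scale.

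Between 22 DAA and HD in gpc-A1/gpc-B2, 40 of the 200 loci fell by the 4 tests, against 3.17% of all loci tested, and 3 rose, against 2.86%. In gpc-A1, 14 fell, against 0.88%, and 1 rose, against 0.82%. In WT, 18 fell, against 1.65%, and 3 rose, against 2.03%. The median log2 fold change was −0.98 in gpc-A1/gpc-B2, −0.64 in gpc-A1 and −0.78 in WT, against 0.01, 0.03 and 0.01 over all loci. Of the 200 loci, 7 were called in all 3 genotypes, 12 in 2, 34 in 1 and 147 in none. When the replicate number was fitted as a block, the calls in gpc-A1 dropped to 5 lower and 1 higher. The counts depended on single libraries, both in the set and over all loci tested. In gpc-A1/gpc-B2 the 43 calls became 90 without HD replicate 3, 22, 26 and 24 without HD replicates 1, 2 and 4, and 26 and 22 without 22 DAA replicates 2 and 4. In gpc-A1 the 15 calls became 4, 3 and 3 without HD replicates 1, 2 and 3, 5 without 22 DAA replicate 1 and 24 without 22 DAA replicate 4, where the median log2 fold change was −1.03. In WT the 21 calls became 10 and 11 without HD replicates 1 and 2, and 13, 12 and 13 without 22 DAA replicates 2, 3 and 4. Over all loci tested, the 1281 calls in gpc-A1 became 93, 126 and 112 without HD replicates 1, 2 and 3. The 2767 calls in WT became 844 and 959 without HD replicates 1 and 2. In gpc-A1/gpc-B2 the 4549 calls became 2225, 2326 and 2550 without HD replicates 1, 2 and 4, and 4450 without HD replicate 3.

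The 3B locus on contig 10579321 showed the largest fall among the called loci. It had 0.672, 0.552, 0.684 and 0.465 CPM at 22 DAA, against 31.01, 36.4, 34.4 and 38.2 CPM at HD, in gpc-A1/gpc-B2, a log2 fold change of −6.09 ± 0.19 (SE, edgeR adjusted P = 9.78e-08). In gpc-A1 it had 0.403, 0.651, 0.254 and 0.397 CPM at 22 DAA, against 27.6, 28.4, 34.6 and 25.98 CPM at HD, a log2 fold change of −6.21 ± 0.31 (SE, edgeR adjusted P = 0.000106). In WT it had 5.12, 0.626, 1.25 and 0.927 CPM at 22 DAA, against 64.9, 67.00, 70.9 and 47.6 CPM at HD, a log2 fold change of −5.23 ± 0.63 (SE, edgeR adjusted P = 0.00101). These calls were kept when any 1 library was left out. A 2BS locus (contig 5247209, 12718-14015) also fell in all 3 genotypes, by 4.26 ± 0.52 in gpc-A1/gpc-B2, by 4.36 ± 0.46 in gpc-A1 and by 3.90 ± 0.42 in WT on the log2 scale, and its call in gpc-A1/gpc-B2 was kept only without HD replicate 3 among the 8 fits that leave out 1 library. A 4BS locus (contig 4881243, 1-2153) fell by 4.51 ± 0.63 on the log2 scale in gpc-A1, to 0.453, 0.955, 6.03 and 2.95 CPM at 22 DAA, against 50.3, 59.4, 38.2 and 50.3 CPM at HD, a call that was lost when any 1 of the HD libraries was left out.

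Some loci rose with time. The 3B locus on contig 10770071, called between gpc-A1/gpc-B2 and WT at 22 DAA, rose in WT to 3.12, 1.48, 1.73 and 2.73 CPM at 22 DAA, against 0, 0.128, 0.116 and 0.155 CPM at HD, a log2 fold change of 4.17 ± 0.50 (SE, edgeR adjusted P = 0.000998). A further 3B locus (contig 10746145, 1-2829) rose in WT by a log2 fold change of 1.57 ± 0.27, a call kept in 3 of the 8 fits that leave out 1 library. A 4AL locus (contig 7175903, 235-1447) rose by log2 fold changes of 2.15 ± 0.37 in gpc-A1/gpc-B2 and 3.20 ± 0.51 in gpc-A1, where the call was kept in 4 of the 8 fits that leave out 1 library. In WT it stood at 5.12, 3.26, 9.86 and 5.13 CPM at 22 DAA, against 1.42, 0.342, 0.405 and 1.03 CPM at HD, a log2 fold change of 2.61 ± 0.47 that did not pass all tests although the libraries did not overlap. A 3B locus (contig 10592822, 5161-5950) rose in gpc-A1/gpc-B2 by a log2 fold change of 2.31 ± 0.25.

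Among the described loci, ruptured pollen grain 1 and sedoheptulose-bisphosphatase passed the tests of time. The 6AL locus of ruptured pollen grain 1 fell in gpc-A1/gpc-B2 to 32.6, 60.3, 53.01 and 49.7 CPM at 22 DAA, against 281, 329, 341 and 238 CPM at HD, a log2 fold change of −2.84 ± 0.22 (SE, edgeR adjusted P = 3.06e-05). It fell in gpc-A1 to 38.1, 25.3, 62.3 and 53.6 CPM at 22 DAA, against 388, 455, 333 and 235 CPM at HD, a log2 fold change of −3.20 ± 0.33 (SE, edgeR adjusted P = 0.00149). In WT it had 89.2, 130.5, 68.96 and 235 CPM at 22 DAA and 366, 442, 261 and 276 CPM at HD, a log2 fold change of −1.68 ± 0.35 that did not pass (SE, edgeR adjusted P = 0.0125). The 3AL locus of sedoheptulose-bisphosphatase fell in gpc-A1/gpc-B2 to 250.4, 317, 339 and 269 CPM at 22 DAA, against 680.4, 696, 618 and 614 CPM at HD, a log2 fold change of −1.38 ± 0.17 (SE, edgeR adjusted P = 0.00044). In gpc-A1 and WT its log2 fold changes were −1.37 ± 0.28 and −1.12 ± 0.24, which did not pass (SE, edgeR adjusted P = 0.0146 and 0.0129). The 4BS Rubisco activase locus did not pass in any genotype, with log2 fold changes of −0.86 ± 0.25 in gpc-A1/gpc-B2, −0.76 ± 0.38 in gpc-A1 and −0.82 ± 0.41 in WT.

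An interaction term in edgeR asked whether the change from HD to 22 DAA differed between genotypes. None of the 200 loci had an adjusted P of 0.01 or less for gpc-A1/gpc-B2 against WT, against 0% higher and 0.0212% lower among all loci, and none for gpc-A1 against WT, against 0%. At an unadjusted edgeR p under 0.05 there were 29 lower and 1 higher for gpc-A1/gpc-B2 against WT (2.99% and 2.64% of all loci), and 16 lower and 1 higher for gpc-A1 against WT (1.97% and 2.91%). DESeq2 called none of the 200 loci in either interaction. Of the 75375 loci tested it called 141 for gpc-A1/gpc-B2 against WT and 11 for gpc-A1 against WT. An interaction between gpc-A1/gpc-B2 and gpc-A1 was not fitted. Whether the counts of falling loci differ among the 3 genotypes was not tested.

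The 4 lists of loci that follow give the setting of the set. They were drawn from the 782 described loci and from the tabulated metal transporters, and how the study ordered the rows at hand is not given in the sources used here. The photosynthesis list holds 64 loci, of which 5 are in the set: the 3 activase loci, sedoheptulose-bisphosphatase and Psb28. At 12 DAA, 63 of the 64 had a lower mean in gpc-A1/gpc-B2 than in WT, against 28567 of the 75375 loci tested. The 5 loci of the set are lower and graded at 12 DAA by the rule, and the 12 DAA values of the list include them. The graded order of the means held in 47 of the list, against 12225 of the 75375. The median log2 difference of the list was −0.66 between gpc-A1/gpc-B2 and WT and −0.08 between gpc-A1 and WT. The same medians over all loci tested were 0.10 and 0.04. No locus of the list was called between genotypes at 22 DAA or HD. Between 22 DAA and HD, 56 fell in gpc-A1/gpc-B2, 3 in gpc-A1 and 24 in WT, against 3.17%, 0.88% and 1.65% of all loci tested. In gpc-A1/gpc-B2 1 locus of the list rose, against 2.86% of all loci tested. The median log2 fold changes of the list were −1.45 in gpc-A1/gpc-B2, −1.41 in gpc-A1 and −1.76 in WT, against 0.01, 0.03 and 0.01 over all loci tested. The differences between the genotypes were not tested. The photosynthesis list shares 41 loci with the 41 mesophyll markers.

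The list of peroxisome and photorespiration holds 24 loci, of which the 2 loci of peroxisomal membrane protein 2 are in the set. Its median log2 difference at 12 DAA, with the 2 loci chosen by the rule included, was −0.42 between gpc-A1/gpc-B2 and WT and −0.24 between gpc-A1 and WT. Between 22 DAA and HD, 3 of its loci fell and 1 rose in gpc-A1/gpc-B2, 1 fell in gpc-A1, and 2 fell and 1 rose in WT. Of all loci tested, 3.17%, 0.88% and 1.65% fell in gpc-A1/gpc-B2, gpc-A1 and WT, and 2.86%, 0.82% and 2.03% rose. The list of protein degradation holds 44 loci, none of which is in the set, with a median log2 difference at 12 DAA of 0.04 between gpc-A1/gpc-B2 and WT. Between 22 DAA and HD, 6 of its loci rose and 1 fell in gpc-A1/gpc-B2, 4 rose in gpc-A1 and 8 rose in WT. The shares over all loci tested are those just given. The 71 loci of metal transporters were left out of the set by the rule. Between gpc-A1/gpc-B2 and WT at 22 DAA 3 of them were lower, against 0.105% of all loci tested. Their median log2 difference between these genotypes at 12 DAA was −0.17.

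The loci on either side of the middle band were compared by the same rule. From each side the 200 loci with the largest difference between WT and gpc-A1/gpc-B2 were taken, without the condition on separate gpc-A1 libraries. The median log2 difference between gpc-A1/gpc-B2 and WT at 12 DAA, which the choice made unequal, was −1.98 where gpc-A1 was nearest to gpc-A1/gpc-B2, −1.33 where it was nearest to WT and −1.06 in the graded set. Of all loci tested, 0.105% were lower in gpc-A1/gpc-B2 than in WT at 22 DAA. Where gpc-A1 was nearest to gpc-A1/gpc-B2, 18 of 200 loci were lower in gpc-A1/gpc-B2 than in WT at 22 DAA, with a median log2 fold change of −2.13, and the median change from HD to 22 DAA in WT was 2.24. Where gpc-A1 was nearest to WT, 4 of 200 were lower at 22 DAA, with a median of −0.89, and the median change from HD to 22 DAA in WT was −0.17. The graded set had 5 of 200 lower at 22 DAA, a median of −0.67 and a median change in WT of −0.78. The sets were chosen on the same libraries, and their differences were not tested.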

How the data were processed

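RNA-seq reads of 50 bp from 36 flag leaf libraries were mapped by the authors with GSNAP to contigs of the A and B genomes, and uniquely mapped reads were counted per locus with HTSeq. Loci were built by the authors from transcripts placed on the contigs with GMAP. The deposited values are raw counts, and reads that fit homoeologs equally are lost. The members and the lists were chosen with earlier results of these data known. Library totals lay between 13754124 and 48981831 counts, which limits the precision for loci of few reads.

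A locus was tested where 2 or more replicates of some group held over 3 reads, and each comparison was fitted on its own 8 libraries. The main test was edgeR's quasi-likelihood test (edgeR 4.0.16, R 4.3.3, TMM). As in the study's methods a call needed 4 tests: edgeR and DESeq2 (1.42.0), both at 0.01 after Benjamini-Hochberg adjustment, the rank test of Mann-Whitney-Wilcoxon by its normal approximation, uncorrected for continuity, at 0.05, and an equal-variance t statistic at 0.01. The methods name DESeq, and DESeq2 was used in its place. The methods leave the form of the t statistic open. The equal-variance form was taken because it came closest to values in the study's supplementary table, after the unequal-variance form had been run, which is kept as an alternative chosen after seeing the data. A missing DESeq2 adjusted P was counted as not called. SE was derived from the fold change and the quasi-likelihood F. The fits were tested on simulated data. Plots were made in matplotlib 3.10.9 under Python 3.11.15.

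Samples of 1 replicate number were sequenced together, according to the methods, so the number was fitted as a block in an alternative. Deviations from group means correlated at a mean r of 0.0215 over 144 pairs of libraries with the same number, and at −0.00741 over 432 pairs with different numbers. Single libraries were left out in turn, and DESeq2 alone, edgeR alone, other scalings and 1 fit of all 36 libraries were run.

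The loci named are the 12 with the largest difference, every locus with a description, the 2 called loci with the largest change per direction and comparison, the 3 on either side of the limit, and the 5 with the most reads in WT. Of 114 tabulated metal transporter entries, 71 were matched to loci (same arm, WT means within 1 normalized count), the resulting list of loci was kept as a fixed list, and 43 were not matched, so some may remain in the set.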

Additional observations from a re-analysis of the deposited data

Results flagged for a closer look

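Among 333 groups of 4 libraries, 27 held 1 library whose gap to the nearest of the others took up an unusually large part of the range of the group (Dixon's ratio, for which chance alone gives about 1 in 20 groups). The median level of the 200 loci in gpc-A1 at 22 DAA gave a ratio of 0.88, with replicate 4 above the others. In gpc-A1/gpc-B2 22 DAA, replicate 1 stood above the others at the 2BS locus on contig 5135769 (0.897), 1AS locus on contig 2952058 (0.9), 1BS locus on contig 2144422 (0.869), 3B locus on contig 6907185 (0.841) and 4BS locus on contig 4910205 (0.867). In gpc-A1 HD, replicate 4 stood below the others at the 1AS locus on contig 2952058 (0.922), 1BS locus on contig 2144422 (0.86), 4AL locus on contig 3709155 (0.909), 4BS locus on contig 4910205 (0.979) and 7AL locus on contig 4456338 (0.86). In gpc-A1/gpc-B2 HD, replicate 3 stood below the others at the 1BL locus on contig 3915340 (0.891), 6AS locus on contig 4363144 (0.86), 6AL locus on contig 5783865 (0.927) and 1AL locus on contig 3853362 (0.898). In gpc-A1 22 DAA, replicate 4 stood above the others at the 1BL locus on contig 3915050 (0.862), 1AL locus on contig 3925467 (0.845), 1AL locus on contig 3853362 (0.852) and 3B locus on contig 10770071 (0.866). In WT HD, replicate 2 stood below the others at the 7BS locus on contig 3148071 (0.836). In gpc-A1 HD, replicate 2 stood above the others at the 2BL locus on contig 7965110 (0.835). In gpc-A1/gpc-B2 22 DAA, replicate 1 stood below the others at the 2BL locus on contig 7965110 (0.839). In WT 22 DAA, replicate 4 stood above the others at the 7BL locus on contig 6737515 (0.854). In WT HD, replicate 3 stood above the others at the 3B locus on contig 10748972 (0.967). In gpc-A1 HD, replicate 1 stood below the others at the 7AL locus on contig 4522889 (0.913). In WT 12 DAA, replicate 4 stood below the others at the 3AL locus on contig 4356350 (0.886). In gpc-A1 22 DAA, replicate 2 stood below the others at the 4AL locus on contig 7175903 (0.867).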

How the results depend on the processing

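Of 275 values under alternatives, 228 moved little, 45 moved more and 2 reversed. Moving little meant a count within 1.5 times, or a median of the same sign with a shift below the spread between libraries. The reversed values were medians of the log2 fold change without 1 library, 0.023 for gpc-A1 over WT at 22 DAA without WT replicate 1 and 0.075 for gpc-A1/gpc-B2 over gpc-A1 at HD without gpc-A1/gpc-B2 replicate 3. DESeq2 alone called 33 members for gpc-A1/gpc-B2 over WT at 22 DAA in place of 5, 5 for gpc-A1 over WT and 2 for gpc-A1/gpc-B2 over gpc-A1 at 22 DAA in place of 0, 4 for gpc-A1/gpc-B2 over WT and 2 for gpc-A1 over WT at HD in place of 0, and for 22 DAA over HD 99 in gpc-A1/gpc-B2 in place of 43, 41 in gpc-A1 in place of 15 and 61 in WT in place of 21. One fit of all 36 libraries called 9 for gpc-A1/gpc-B2 over WT and 2 for gpc-A1 over WT at 22 DAA, and 30 for 22 DAA over HD in gpc-A1. The unequal-variance t statistic gave 3 for gpc-A1/gpc-B2 over WT at 22 DAA, and 28 in gpc-A1/gpc-B2 and 12 in WT for 22 DAA over HD. Under the replicate block 3 were called for gpc-A1/gpc-B2 over WT at 22 DAA and 6 for 22 DAA over HD in gpc-A1. Outside the fits that leave out 1 library, no other count moved by more than 1.5 times. The causes were not tested.

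Without single libraries the calls ranged from 0 to 6 for gpc-A1/gpc-B2 over WT at 22 DAA, and for 22 DAA over HD from 22 to 90 in gpc-A1/gpc-B2, 3 to 24 in gpc-A1 and 10 to 28 in WT. The medians ranged at 22 DAA from −0.75 to −0.47 (gpc-A1/gpc-B2 over WT), −0.51 to 0.023 (gpc-A1 over WT) and −0.51 to −0.078 (gpc-A1/gpc-B2 over gpc-A1), and at HD from −0.52 to −0.17, −0.46 to −0.16 and −0.21 to 0.075. For 22 DAA over HD they ranged from −1.10 to −0.88 in gpc-A1/gpc-B2, −1.03 to −0.45 in gpc-A1 and −0.92 to −0.62 in WT. The rule kept 85 to 169 of the 200 loci without single libraries, 183 with a pseudocount of 1 CPM and 151 with TMM scaling. Loci of few reads limit the precision, and p-values measure the spread between 4 leaves per group.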
